A study of Mus musculus with 24 samples.

Results

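The Tudor and germ granule helicase genes were 10 genes of the 55536 in the count table, namely Tdrd1, Tdrd5, Tdrd6, Tdrd7, Tdrd9, Tdrkh, Rnf17, Stk31, Ddx4 and Ddx25. They were chosen by name, as the entries whose Ensembl identifiers carry these symbols in GENCODE release 21 for mouse, and the rule uses no measured value. The choice of these genes was nevertheless made with earlier results of these data known. Each symbol matched 1 entry, and all 10 entries passed the filter on low counts in every fit.

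The libraries were poly(A) RNA-seq of enriched pachytene/diplotene spermatocytes (SP) and enriched round spermatids (RS) from the testes of males aged 10 to 15 weeks on a C57BL/6J background. The genotypes were Ago413+/+ (wild type), Ago413+/- (heterozygous) and Ago413-/- (null). The deletion, made by crossing mice from loxP-targeted embryonic stem cells to a Sox2-cre line, takes out Ago1 whole and its tandem neighbours Ago3 and Ago4 in part, all on chromosome 4. These genes encode Argonaute proteins, which bind small RNAs. The deletion is present in every cell of the animal and not in germ cells alone. Fractions came from a gravity gradient of bovine serum albumin, were pooled from 2 to 5 mice, and were kept by purity under the microscope, for which the labels give a limit of 70% and the methods of the study a higher one for RS. In SP there were 4 Ago413+/+, 3 Ago413+/- and 3 Ago413-/- libraries, and in RS there were 3, 4 and 4. The 21 libraries held 12825105 to 29749058 counts each.

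Germ granules are cytoplasmic bodies without a membrane that collect RNA, RNA helicases and PIWI proteins in male germ cells. They appear between mitochondria in spermatocytes as the intermitochondrial cement and as the chromatoid body in round spermatids. Tudor domains bind methylated arginines, including those of PIWI proteins, and Tudor proteins act as scaffolds on which piRNAs, the small RNAs that guide PIWI proteins, are made and used. DEAD-box helicases remodel RNA in the same bodies, and Ddx4, the mouse homologue of Drosophila vasa, is the classical marker of both.

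The fractions were first read from marker genes, given as sums of CPM (counts scaled to a common library size after TMM normalization). The sum of 8 spermatocyte markers ranged from 632 to 1022 CPM in Ago413+/+ SP, 421 to 578 CPM in Ago413+/- SP and 449.6 to 657 CPM in Ago413-/- SP, against 277 to 469 CPM over the RS libraries of all genotypes. The sum of 5 elongating spermatid markers was 3383 to 11920 CPM in SP and 16171 to 45415 CPM in RS. The sum of 8 round spermatid markers did not separate the fractions, with 1012 to 2668 CPM in SP and 1439 to 2290 CPM in RS. None of the spermatocyte, round spermatid or elongating spermatid markers was at 0 in any group. Spermatogonial markers summed to 61.7 to 111 CPM, Sertoli markers to 66.3 to 361 CPM, and Leydig and myoid markers to at most 22.8 CPM each. In Ago413-/- males Sertoli markers summed to 73.0 to 131 CPM in SP and 185 to 342 CPM in RS. The fractions overlapped in these sums in the other genotypes. Their part in the null fraction differences was not tested. Macrophage markers were higher in RS, at 7.66 to 24.1 CPM in SP and 33.2 to 87.7 CPM in RS, with 6 of 8 called higher in RS in each genotype. Of all genes, 12.7% were called higher in Ago413+/+, 7.07% in Ago413+/- and 11.7% in Ago413-/- males. Erythrocyte markers summed to at most 2.29 CPM, and 3 of the 4 erythrocyte markers were at 0 in Ago413+/+ SP.

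Ago413+/+ SP replicate 5 stood apart from the other 3 libraries of its group, with 1670 CPM of round spermatid markers against 1012 to 1139 CPM. Ago413+/+ SP replicate 4 stood apart in elongating spermatid markers, with 3383 CPM against 7706 to 8129 CPM. A further 3 libraries, called outliers in the labels, were left out. Among them, the library labelled Ago413+/+ RS replicate 3 held 4925 CPM of elongating spermatid markers against 21816 to 30825 CPM in the other libraries of that group.

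Compared per length, as CPM per kilobase of merged exons (RPKM), the members fell into a high and a low set in every group. Ddx4, Tdrd6, Tdrd7 and Ddx25 had group means from 85.2 to 210 RPKM and stood between the 95.2 and 98.8 percentiles of the genes in the fit. The other 6 genes had group means from 3.11 to 38.2 RPKM, and the libraries of Ddx25 and Rnf17, the neighbours on either side of this gap, overlapped in none of the 6 groups.

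Within the high set the order was mostly not resolved. In Ago413+/+ SP the means were 208 ± 25.0 RPKM for Ddx4, 153 ± 24.3 RPKM for Tdrd6, 123 ± 9.91 RPKM for Tdrd7 and 108 ± 5.69 RPKM for Ddx25 (SD, n = 4), and each gene overlapped the next. In Ago413+/+ RS, Tdrd6 led with 143 ± 5.17 RPKM, followed by Ddx4 with 130 ± 22.7 RPKM and Tdrd7 with 126 ± 12.1 RPKM (SD, n = 3), again overlapping, while Ddx25 with 89.7 ± 8.03 RPKM lay below Tdrd7 in every library.

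In the low set of Ago413+/+ SP, Rnf17 (31.6 ± 4.74 RPKM), Tdrd1 (28.3 ± 16.0 RPKM), Tdrd9 (24.2 ± 5.59 RPKM) and Stk31 (23.7 ± 10.0 RPKM) overlapped in turn, with Tdrd5 at 15.1 ± 7.03 RPKM and Tdrkh lowest at 6.87 ± 2.35 RPKM (SD, n = 4). In Ago413+/+ RS, Rnf17 was at 19.4 ± 5.03, Tdrd9 at 16.4 ± 2.15, Tdrd1 at 10.2 ± 2.77 and Stk31 at 5.90 ± 0.549 RPKM (SD, n = 3), and only Rnf17 and Tdrd9 overlapped among these neighbours. Tdrd5 (4.50 ± 1.27 RPKM) and Tdrkh (4.22 ± 0.272 RPKM) closed the order, overlapping each other, and Stk31 overlapped Tdrd5.

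**Figure D1:**
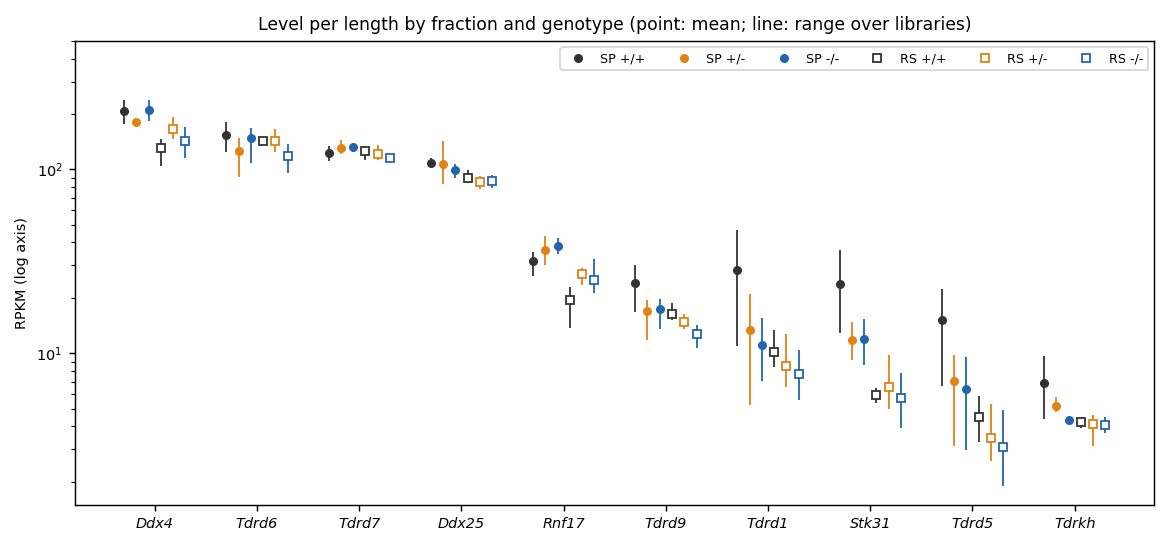
Mean level per length (RPKM, log axis) of the 10 genes in spermatocytes (SP, filled circles) and round spermatids (RS, open squares) of each Ago413 genotype, with lines for the range over 3 or 4 libraries. Ddx4, Tdrd6, Tdrd7 and Ddx25 lie above the other 6 genes, and the widest ranges are those of Tdrd1, Stk31 and Tdrd5 in SP.

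The low-set genes that the rest of the results turn on are Tdrd1, Tdrd5 and Stk31. Tdrd1 (ENSMUSG00000025081, chromosome 19, 56826209 to 56870012, plus strand) encodes a multiple Tudor protein of the intermitochondrial cement that binds the PIWI protein MILI. Tdrd5 (ENSMUSG00000060985, chromosome 1, 156255296 to 156303664, minus strand) encodes a protein with LOTUS and Tudor domains, and Stk31 (ENSMUSG00000023403, chromosome 6, 49395604 to 49469501, plus strand) encodes a Tudor protein with a kinase-like domain. Gene coordinates are those of GENCODE on GRCm38, and all 10 genes are protein coding. The others are Ddx4 (chromosome 13, 112598333 to 112652475, minus strand), Ddx25 (chromosome 9, 35536647 to 35558528, minus), Tdrd6 (chromosome 17, 43615335 to 43630299, minus), Tdrd7 (chromosome 4, 45965334 to 46034761, plus), Tdrd9 (chromosome 12, 111971559 to 112068854, plus), Tdrkh (chromosome 3, 94413273 to 94434668, plus) and Rnf17 (chromosome 14, 56402581 to 56525032, plus). Of these, Tdrd7 lies on the chromosome of the deletion.

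Their promoters are shown because these 3 genes had the largest differences between fractions. Each window runs from 250 bases before to 50 bases after the RefSeq start on GRCm38.p6, 5′ to 3′ on the gene's strand, and capitals mark AACTG, the core letters bound by MYB proteins, on either strand. The windows are chr19:56825959-56826258 on the plus strand for Tdrd1, chr1:156303299-156303598 on the minus strand for Tdrd5 and chr6:49395354-49395653 on the plus strand for Stk31.
Tdrd1: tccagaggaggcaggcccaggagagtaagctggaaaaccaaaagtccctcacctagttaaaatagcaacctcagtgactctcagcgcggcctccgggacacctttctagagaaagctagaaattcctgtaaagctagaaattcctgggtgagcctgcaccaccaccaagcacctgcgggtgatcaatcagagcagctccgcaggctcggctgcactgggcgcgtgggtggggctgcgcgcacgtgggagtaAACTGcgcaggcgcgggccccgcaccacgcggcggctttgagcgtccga
Tdrd5: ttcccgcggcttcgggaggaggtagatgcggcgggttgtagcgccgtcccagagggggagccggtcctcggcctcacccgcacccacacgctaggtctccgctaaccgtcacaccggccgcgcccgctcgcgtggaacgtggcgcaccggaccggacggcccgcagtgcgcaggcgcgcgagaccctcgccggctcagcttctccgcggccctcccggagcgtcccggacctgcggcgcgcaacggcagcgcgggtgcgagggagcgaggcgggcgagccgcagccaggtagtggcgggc
Stk31: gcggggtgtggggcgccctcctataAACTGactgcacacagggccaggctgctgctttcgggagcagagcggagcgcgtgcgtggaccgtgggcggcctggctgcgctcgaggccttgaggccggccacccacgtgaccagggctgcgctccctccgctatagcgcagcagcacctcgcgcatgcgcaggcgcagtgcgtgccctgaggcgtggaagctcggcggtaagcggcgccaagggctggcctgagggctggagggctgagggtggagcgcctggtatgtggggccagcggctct
The match in Tdrd1 begins at base 2, counting the start site as base 1, and that in Stk31 225 bases before the start site, and the Tdrd5 window holds none. The RefSeq start of the Tdrd5 window lay 316 bases from the start of the main GENCODE transcript, against 0 for Tdrd1 and Stk31. That window lies inside the gene span given above, so the bases before the GENCODE start were not read for Tdrd5. Windows were read for 8 of the 10 genes, not for Tdrd6 and Rnf17. AACTG was in 3 of the 8, with Tdrkh the other, against 44.8% of all 32851 RefSeq promoter windows of this length. TGACGTCA, the full cyclic AMP response element, was in 0 of 8 against 1.79% of all windows. TGACG, the 5 letters at its left end, was in 3 of 8 (Tdrd5, Tdrd7 and Ddx4) against 20.81%. The full element contains these letters on both strands. The GC content was 60.3% in the Tdrd1 window, 76.0% in the Tdrd5 window and 71.3% in the Stk31 window, against a median of 52.7% over all windows.

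The comparison of round spermatids with spermatocytes asks how far these transcripts persist after meiosis. In Ago413+/+ males, 7 of the 10 genes were called lower in RS and none higher (edgeR quasi-likelihood test, Benjamini-Hochberg adjusted p under 0.05 over all genes tested and a log2 fold change beyond 0.5 in either direction). Of all 20404 genes tested, 24.2% were called, and 11.4% were called lower. DESeq2 called the same 7 genes, against 26.7% of all genes. The median log2 fold change of the members was -0.69 against 0.02 for all genes tested. Stk31, Tdrd5 and Tdrd1 fell the most, and Tdrd6, Tdrd7 and Ddx25 did not pass the test.

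Stk31 was at 85.7, 62.9, 117 and 41.6 CPM in Ago413+/+ SP replicates 1, 2, 4 and 5 and at 17.3, 19.1 and 20.9 CPM in RS replicates 1, 2 and 4. The lowest SP library lay above the highest RS library. The log2 fold change was -2.01 (SE 0.32), 4.02-fold lower (adjusted p = 0.000482 by edgeR).

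Tdrd5 was at 133, 85.3, 155 and 46.1 CPM in the same SP libraries and at 40.4, 22.96 and 30.2 CPM in the RS libraries. These groups did not overlap either, although SP replicate 5 came close to RS replicate 1. Tdrd5 fell by 1.75 on the log2 scale (SE 0.45, adjusted p = 0.00648 by edgeR), 3.36-fold. An antisense gene, 4930518J20Rik, shares 176 exon bases with Tdrd5 and had 54643 counts over all 24 libraries against 21885 for Tdrd5. Whether stray reads add to Tdrd5 was not tested.

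Tdrd1 was at 192, 109, 256 and 59.5 CPM in SP and at 72.9, 46.1 and 47.5 CPM in RS. Here the groups overlapped, because SP replicate 5 lay below RS replicate 1. Tdrd1 fell by 1.47 (SE 0.44, adjusted p = 0.0159 by edgeR), 2.77-fold.

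Tdrkh, a mitochondrial protein with KH and Tudor domains that takes part in trimming piRNA 3′ ends, was at 48.2, 34.2, 59.4 and 27.1 CPM in SP and at 26.6, 23.99 and 27.1 CPM in RS. Only the SP replicate 5 library reached the RS range. It fell by 0.70 (SE 0.20, adjusted p = 0.0131 by edgeR). Of its 6142 exon bases, 2255 lie inside exons of Oaz3 on the opposite strand, which had 837972 counts over all 24 libraries against 14574 for Tdrkh. Counts of 271 of 498 genes whose exons lie wholly inside exons of the opposite strand were above 0, so the counting used strand. Whether stray Oaz3 reads add to Tdrkh was not tested.

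Tdrd9, a helicase with a Tudor domain that serves transposon silencing, was at 141, 128, 164 and 91.2 CPM in SP and at 102, 81.9 and 81.8 CPM in RS. SP replicate 5 again fell inside the RS range. The decrease was 0.56 (SE 0.20, adjusted p = 0.0393 by edgeR), the smallest of the 7 calls.

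Rnf17, which has a RING finger and Tudor domains, was at 164, 180, 223 and 221 CPM in SP and at 85.2, 136 and 143 CPM in RS, with no overlap. It fell by 0.70 (SE 0.19, adjusted p = 0.00798 by edgeR). In SP replicate 5 it was among the higher values of its group, unlike the 5 genes above.

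Ddx4 was at 532, 624, 716 and 630.5 CPM in SP and at 315, 440.3 and 424 CPM in RS. The groups did not overlap. It fell by 0.67 (SE 0.16, adjusted p = 0.00372 by edgeR).

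The 3 genes without a call were all of the high set. Tdrd6 and Tdrd7, which encode scaffold proteins of the chromatoid body, had log2 fold changes of -0.10 (SE 0.18) and 0.04 (SE 0.12). Tdrd6 ranged from 873 to 1273 CPM in SP and from 977 to 1049 CPM in RS, and Tdrd7 from 439 to 532 CPM and from 443 to 529 CPM. Ddx25, a testis helicase regulated by gonadotropin that serves mRNA export and translation in spermatids, ranged from 706 to 801 CPM in SP and from 581 to 685 CPM in RS. Its groups did not overlap, yet the log2 fold change of -0.27 (SE 0.15) did not pass the test (adjusted p = 0.186 by edgeR). In all, 5 of the 10 genes had every RS library below every SP library (Tdrd5, Rnf17, Stk31, Ddx4 and Ddx25), against 16.4% of all genes tested.

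**Figure D2:**
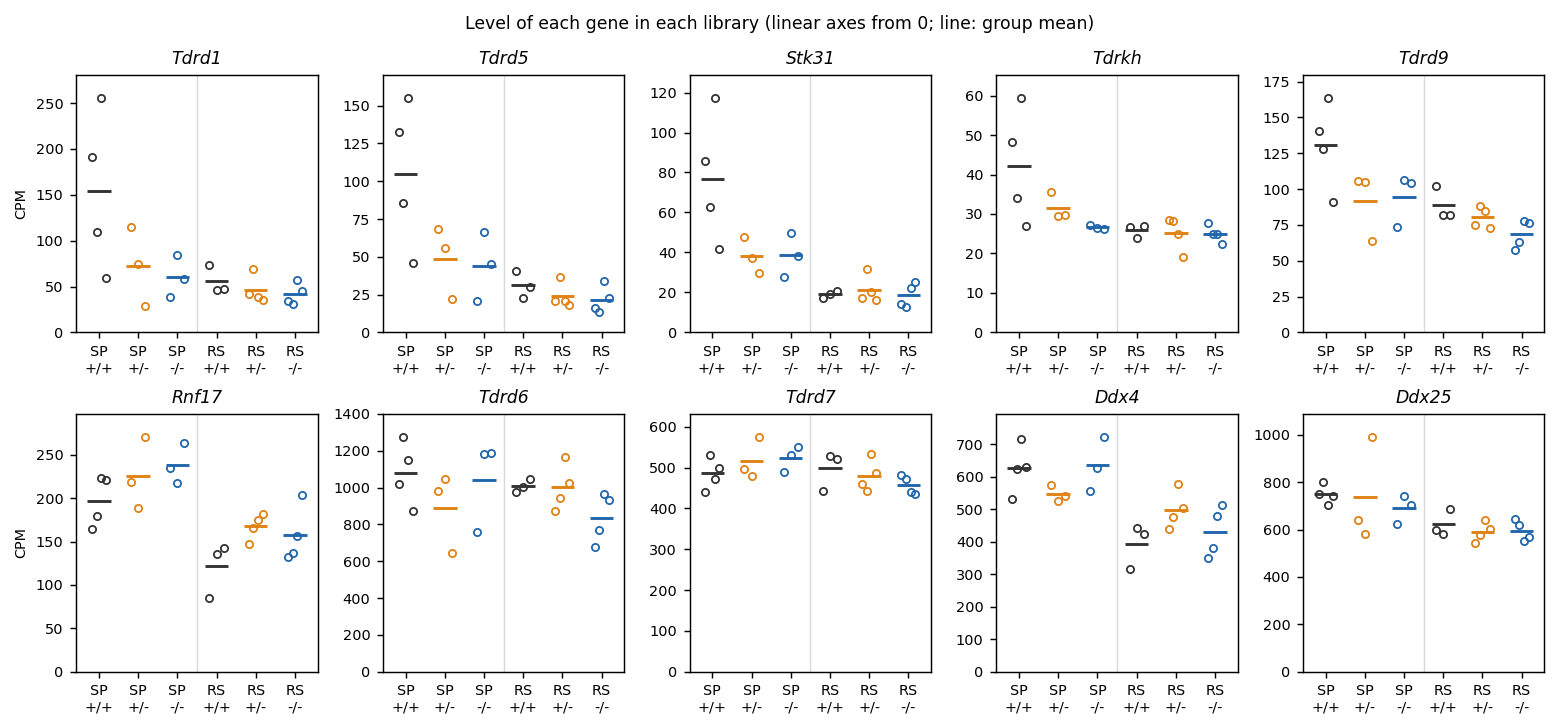
Level of each gene (CPM, linear axes from 0) in each library of spermatocytes (SP) and round spermatids (RS) by Ago413 genotype, with circles for libraries and lines for group means. Stk31 falls from 41.6 to 117 CPM in Ago413+/+ SP to 17.3 to 20.9 CPM in Ago413+/+ RS, while Tdrd7 lies between 434 and 575 CPM in all 21 libraries.

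These calls rest on which libraries enter. Without Ago413+/+ SP replicate 4, or without RS replicate 2, 4 genes were called (Tdrd5, Rnf17, Stk31 and Ddx4 in both cases), while 16.7% and 17.5% of all genes were called. Tdrd9 lost its call in 5 of 7 fits that each left out 1 library, Tdrd1 in 3, Tdrkh in 2 and Rnf17 in 1. With the 3 libraries labelled outliers added back, 0 of 10 members and 0 of 20542 genes were called by edgeR (0%), and 5 members and 29% of all genes had an unadjusted p under 0.05. Stk31 then had a log2 fold change of -1.62 (adjusted p = 0.063 by edgeR), Tdrd5 of -1.59 (adjusted p = 0.0646), Tdrd1 of -1.35 (adjusted p = 0.0673), Rnf17 of -0.29 (adjusted p = 0.372) and Ddx4 of -0.35 (adjusted p = 0.203).

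Tdrd1, Tdrd5 and Stk31 also stand in the list of pachytene marker genes that the study made from single cells. That list was not made from these libraries, and 75 of its 91 tested genes were called lower in Ago413+/+ RS, against 11.4% of all genes. Its median log2 fold change was -1.35. The sums of spermatocyte, elongating spermatid and macrophage markers given above differ between the fractions in the same libraries, and their part in the members' differences was not tested. In bulk RNA, fewer cells of a type and less RNA per cell cannot be told apart.

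The same comparison in Ago413-/- males gave 3 calls, all lower, for Stk31, Rnf17 and Ddx4, against 17.1% of all genes called and 5.42% called lower. DESeq2 called the same 3 genes, against 19.9% of all genes. Stk31 was at 27.8, 49.9 and 38.0 CPM in the 3 SP libraries and between 12.6 and 25.2 CPM in the 4 RS libraries, a log2 fold change of -1.06 (SE 0.30, adjusted p = 0.0189 by edgeR). Rnf17 fell by 0.60 (SE 0.18, adjusted p = 0.0244 by edgeR), from 217 to 264 CPM down to 133 to 203 CPM. Ddx4 fell by 0.56 (SE 0.15, adjusted p = 0.0148 by edgeR), from 555 to 721 CPM down to 348 to 514 CPM.

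All 3 genes had no overlap between the fractions, as had Tdrd7, against 11% of all genes with RS below SP throughout. Tdrd5, without a call, had a difference of -1.03 (SE 0.42, adjusted p = 0.0953 by edgeR), and Tdrd1 was at -0.53 (SE 0.42, adjusted p = 0.403). Without SP replicate 2 they were -0.615 for Tdrd5 and -0.215 for Tdrd1, and without SP replicate 1 they were -1.37 and -0.77. The log2 fold change was -0.46 for Tdrd9 and -0.09 for Tdrkh. The 3 calls were not stable. By edgeR none remained without SP replicate 3, RS replicate 1 or RS replicate 2, when 6.15%, 10.6% and 11.8% of all genes were called and 4, 3 and 3 members had an unadjusted p under 0.05, and 5 genes were called without SP replicate 1 (20.3% of all genes). With the outlier libraries added back edgeR called none (11.1% of all genes) and 4 members had an unadjusted p under 0.05. The log2 fold changes were then -1.06 for Stk31 (adjusted p = 0.0864 by edgeR), -0.60 for Rnf17 (adjusted p = 0.0968) and -0.56 for Ddx4 (adjusted p = 0.0737).

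In Ago413+/- males no member was called by edgeR or by DESeq2, against 8.89% of all genes (1.82% lower) with edgeR and 11.2% with DESeq2, and 4 members had an unadjusted p under 0.05 against 23.6% of all genes. Stk31 came nearest, at 47.7, 37.0 and 29.8 CPM in SP and 17.3, 31.5, 20.2 and 16.2 CPM in RS (log2 fold change -0.84, SE 0.30, adjusted p = 0.0871 by edgeR). Tdrd5 differed by -1.02 (SE 0.42, adjusted p = 0.14), Tdrd1 by -0.65 (SE 0.42, adjusted p = 0.373; -0.16 without SP replicate 1 and -1.05 without SP replicate 3) and Ddx4 by -0.13 (SE 0.16, adjusted p = 0.672). Tdrkh (-0.33) and Rnf17 (-0.43) were the genes with no overlap between the fractions, 2 of 10 against 7.07% of all genes with RS below SP throughout. Leaving out 1 library gave -0.392 to -0.218 for Tdrkh and -0.547 to -0.306 for Rnf17. It gave -0.208 to -0.074 for Ddx4 and -1.388 to -0.7 for Tdrd5. Stk31 was called without RS replicate 2, when 11.1% of all genes were, and Stk31 and Tdrd5 without the filter on low counts, when 5.83% were.

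**Figure D3:**
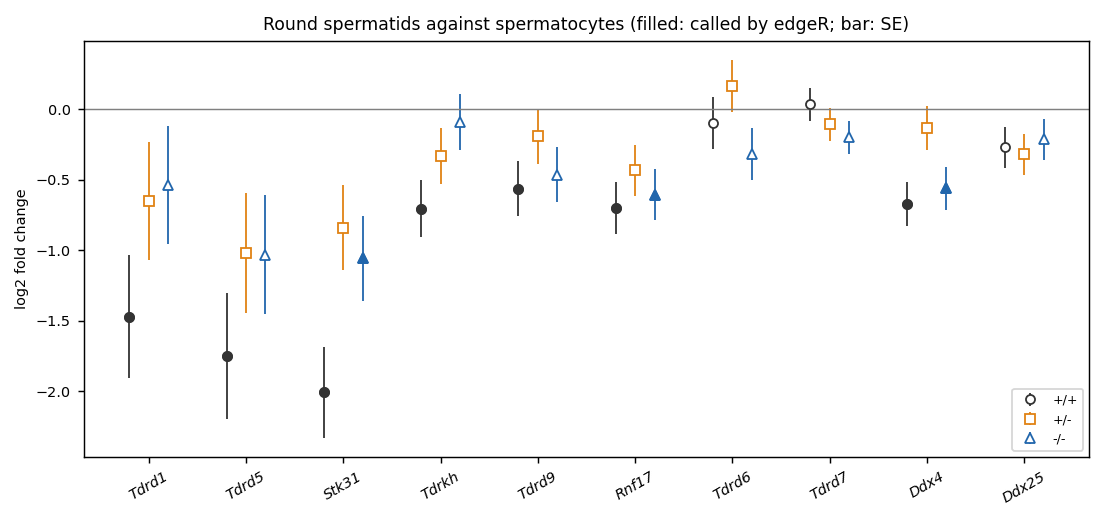
Log2 fold change of round spermatids against spermatocytes for each gene in Ago413+/+ (circles), Ago413+/- (squares) and Ago413-/- (triangles) males, with bars for the standard error and filled symbols for calls by edgeR. Filled symbols number 7 in the wild type, 0 in the heterozygote and 3 in the null, and Stk31 in the wild type is lowest at -2.01.

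Whether the genotype changes the fraction difference was tested as an interaction over all 21 libraries. No member passed for the null or for the heterozygote, with either tool, and neither did any of the 20404 genes (0%). At an unadjusted p under 0.05 there were 2 members in each interaction, against 5.95% and 7.72% of all genes. For Stk31 the null effect was higher by 0.95 in RS than in SP on the log2 scale (SE 0.44, adjusted p = 0.807 by edgeR) and the heterozygous effect by 1.17 (SE 0.44, adjusted p = 0.637). The null effect differed by 0.94 for Tdrd1 (SE 0.60, adjusted p = 0.807) and by 0.61 for Tdrkh (SE 0.28, adjusted p = 0.807). Without wild-type SP replicate 4 these were 0.58 for Tdrd1 and 0.40 for Tdrkh, and the null value of Stk31 was 0.67. For Ddx4 the heterozygous effect differed by 0.54 (SE 0.22, adjusted p = 0.637). The larger number of calls in the wild type is therefore not shown to be a difference between genotypes.

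Ago413-/- against Ago413+/+ spermatocytes asks what loss of the Argonautes does to these transcripts in meiosis. No member was called by edgeR, against 0.0411% of all 19450 genes. DESeq2 called Tdrd1 and Stk31, 2 of 10, both lower, against 15.2% of all genes and 6.25% lower. At an unadjusted p under 0.05 with edgeR there were 4 members, all lower (Tdrd1, Tdrd5, Tdrkh and Stk31), against 30.4% of all genes and 14.5% lower. The median of the members was -0.27 against -0.03 for all genes.

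Tdrd1 was at 38.6, 84.7 and 58.3 CPM in the Ago413-/- SP libraries, against 192, 109, 256 and 59.5 CPM in Ago413+/+ SP. Of the wild-type libraries, only replicate 5 lay within the null range. The log2 fold change was -1.32 (SE 0.49, adjusted p = 0.0993 by edgeR).

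Tdrd5 was at 20.6, 66.2 and 45.5 CPM in the null and Stk31 at 27.8, 49.9 and 38.0 CPM. For both genes, wild-type replicate 5, with 46.1 CPM of Tdrd5 and 41.6 CPM of Stk31, lay inside the null range and the other 3 wild-type libraries lay above it. The log2 fold changes were -1.23 for Tdrd5 (SE 0.46, adjusted p = 0.103 by edgeR) and -0.97 for Stk31 (SE 0.31, adjusted p = 0.0742).

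Tdrkh was tightly grouped in the null, at 27.3, 26.5 and 26.1 CPM, with wild-type replicate 5 at 27.1 CPM and the other wild-type libraries from 34.2 to 59.4 CPM. Its log2 fold change was -0.64 (SE 0.23, adjusted p = 0.0986 by edgeR). Tdrd9 differed by -0.45 (SE 0.23, adjusted p = 0.199). The 4 genes of the high set lay between -0.10 for Ddx25 and 0.13 for Tdrd7, and Rnf17 was at 0.30 (SE 0.17, adjusted p = 0.237). No member had groups that did not overlap, against 27.8% of all genes.

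Without wild-type replicate 5, edgeR called 4 members lower, which were Tdrd1 at -1.59 (adjusted p = 0.0271), Tdrd5 at -1.47 (adjusted p = 0.0325), Tdrkh at -0.79 (adjusted p = 0.0177) and Stk31 at -1.17 (adjusted p = 0.0123). In that fit 23.6% of all 19181 genes were called. Leaving out any other wild-type or null SP library gave no call among the members, and the heterozygous SP libraries were not left out in turn here. Without wild-type replicate 4 the log2 fold changes were smaller, at -0.92 for Tdrd1, -0.64 for Stk31, -0.38 for Tdrkh and -0.27 for Tdrd9. With the outlier libraries added back, Tdrd1 was at -1.06 (adjusted p = 0.304 by edgeR), Tdrd5 at -0.94 (adjusted p = 0.384), Stk31 at -0.71 (adjusted p = 0.354) and Tdrkh at -0.47 (adjusted p = 0.308). Without the filter on low counts Tdrd1, Tdrd5 and Stk31 were called, when 7.61% of all genes were.

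The order of the libraries was the same for Tdrd1, Tdrd5, Stk31 and Tdrd9 within each SP group. Replicate 4 was highest in the wild type, followed by 1, 2 and 5, replicate 2 was highest in the null, followed by 3 and 1, and replicate 1 was highest in the heterozygote, followed by 2 and 3. The spread within the wild type was a coefficient of variation of 56.4% for Tdrd1, 46.5% for Tdrd5 and 42.2% for Stk31, against 5.26% for Ddx25 and 8.07% for Tdrd7.

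Wild-type SP replicate 4 had both the highest sum of spermatocyte markers, 1022 CPM, and the highest level of Tdrd1, Tdrd5 and Stk31. The order of the sums matched that of the genes in part. Wild-type replicate 1 was next in both (743 CPM), heterozygous replicate 1 was highest in both (578 CPM) and null replicate 1 lowest in both (449.6 CPM). Wild-type replicate 5 had a sum of 641 CPM against 632 CPM in replicate 2, with lower levels of the 3 genes. In the null, replicate 3 had the highest sum, 657 CPM, and replicate 2 the highest levels, and in the heterozygote replicate 3 had 556 CPM against 421 CPM in replicate 2, with lower levels. The pachytene list of the study had a median log2 fold change of -0.92 in this comparison, with 0 of 91 genes called by edgeR, 68 at an unadjusted p under 0.05 and 37 called by DESeq2. The shares of all genes were 0.0411%, 30.4% and 15.2% in that order. Round spermatid markers summed to 1012, 1059, 1139 and 1670 CPM in wild-type replicates 4, 1, 2 and 5 and to 1679, 1771 and 1909 CPM in null replicates 2, 3 and 1, the reverse of the order of the genes in both groups. In the heterozygote the sums were 1583, 1405 and 2668 CPM in replicates 1, 2 and 3, with the highest sum where the genes were lowest. Sertoli markers summed to 124 to 329 CPM in wild-type SP and 73.0 to 131 CPM in null SP. Macrophage markers summed to 7.66 to 12.9 CPM and 10.4 to 24.1 CPM. The part of all these markers in the members' values was not tested.

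**Figure D4:**
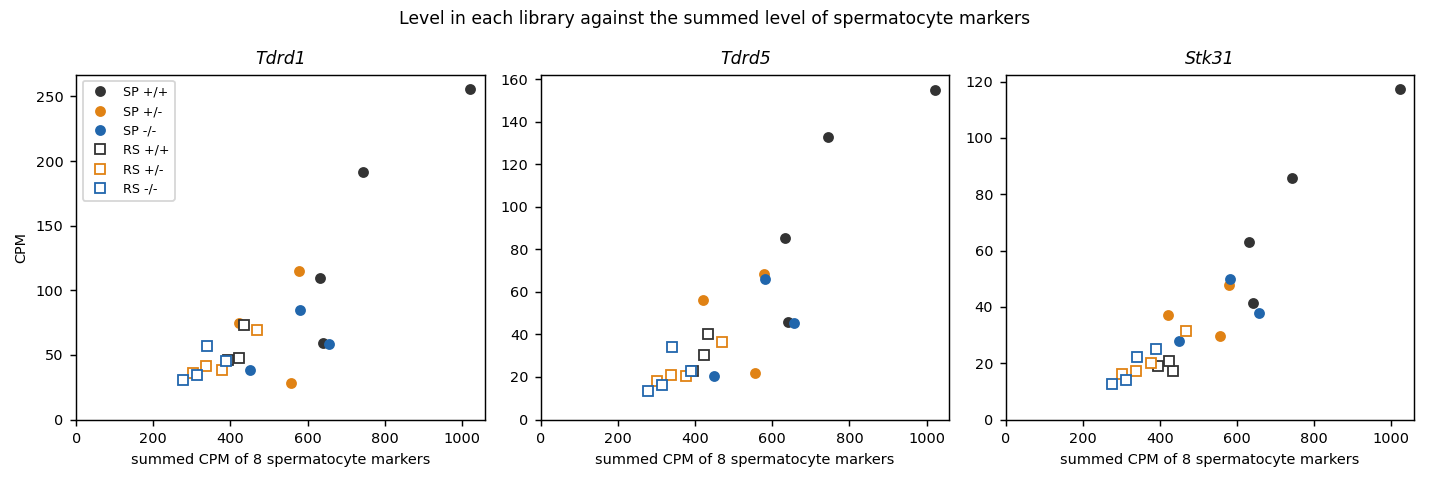
Level of Tdrd1, Tdrd5 and Stk31 (CPM) in each of 21 libraries against the summed level of 8 spermatocyte markers (CPM) in spermatocytes (SP, filled circles) and round spermatids (RS, open squares), coloured by Ago413 genotype. The wild-type SP library with a marker sum of 1022 CPM has the highest level of each gene, and all RS libraries lie at marker sums of 277 to 469 CPM.

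The Ago413+/- spermatocytes gave a like picture against the wild type. These values share the wild-type libraries with the null comparison and are given side by side. No member was called by edgeR or DESeq2, against 0.0257% of all genes with edgeR and 6.16% with DESeq2, and 2 members had an unadjusted p under 0.05 against 24.6% of all genes. The log2 fold changes were -1.05 for Tdrd5 (SE 0.46, adjusted p = 0.183 by edgeR), -1.03 for Tdrd1 (SE 0.48, adjusted p = 0.206), -0.96 for Stk31 (SE 0.31, adjusted p = 0.128) and 0.24 for Rnf17 (SE 0.17, adjusted p = 0.37). Tdrd1 was at 115, 74.9 and 28.4 CPM in the heterozygote, with replicate 3 lowest. That library had 2668 CPM of round spermatid markers against 1405 and 1583 CPM in the other 2. The pachytene list of the study had a median of -0.77 here, with 0 of 91 genes called by edgeR, 51 at an unadjusted p under 0.05 and 18 called by DESeq2, and the part of these markers was not tested. With the outlier libraries added back, Tdrd5 was at -1.08 (adjusted p = 0.254 by edgeR), Tdrd1 at -1.01 (adjusted p = 0.242) and Stk31 at -0.93 (adjusted p = 0.18). Without wild-type replicate 5, Stk31 was called (log2 fold change -1.15, adjusted p = 0.0233), when 15.5% of all genes were. Without wild-type replicate 4, Stk31 was at -0.625 and Tdrd1 at -0.61, and without heterozygous replicate 3 Rnf17 was at 0.09 and Tdrd5 at -0.71. Tdrd1, Tdrd5 and Stk31 were called without the filter on low counts, when 4.3% were. All members overlapped between these groups, against 17.2% of all genes that did not.

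Between Ago413-/- and Ago413+/- spermatocytes no member was called by either tool, against 0.00514% of all genes with edgeR and 0.0206% with DESeq2, and none had an unadjusted p under 0.05, against 3.74%. The log2 fold changes ran from -0.29 for Tdrd1 (SE 0.50) to 0.19 for Tdrd6 (SE 0.22). Neither sign was stable, since leaving out 1 library gave -0.69 to 0.19 for Tdrd1 and -0.002 to 0.35 for Tdrd6. For Tdrkh the 3 null libraries, at 26.1 to 27.3 CPM, lay below the 3 heterozygous libraries, at 29.5 to 35.7 CPM (log2 fold change -0.27, SE 0.25, adjusted p = 0.974 by edgeR), 1 of 10 members with no overlap against 8.6% of all genes. With a term for the library number in the fit the Tdrkh value turned above 0.

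In round spermatids the log2 fold changes of the null against the wild type ran from -0.55 to 0.35. No member was called by edgeR or DESeq2 in Ago413-/- against Ago413+/+ RS, against 0.0518% of all 19310 genes with edgeR and 3.62% with DESeq2. The exception to overlap was Tdrd9, at 57.8, 63.0, 77.5 and 76.5 CPM in the null and 102, 81.9 and 81.8 CPM in the wild type, so that every null library was lower. Its log2 fold change was -0.39 (SE 0.15, adjusted p = 0.186 by edgeR), 1 of 10 members without overlap against 20.8% of all genes, and it was the 1 member with an unadjusted p under 0.05, against 19.3%.

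Tdrd5 had the largest difference of either sign, -0.55 (SE 0.32, adjusted p = 0.358 by edgeR), followed by Tdrd1 at -0.43 (SE 0.26, adjusted p = 0.39), Rnf17 at 0.35 (SE 0.20, adjusted p = 0.349) and Tdrd6 at -0.29 (SE 0.16, adjusted p = 0.338). Stk31 was at -0.06 (SE 0.28, adjusted p = 0.93). Without wild-type replicate 1 the values were -0.32 for Tdrd5, -0.19 for Tdrd1 and 0.15 for Rnf17, and without null replicate 3 Tdrd5 was at -0.87. Tdrd6 was at -0.187 without null replicate 1 and at -0.38 without null replicate 4. The spermatocyte markers summed to 395 to 434 CPM in the wild-type and 277 to 389 CPM in the null RS libraries, and their part was not tested. With the wild-type outlier library added back, Rnf17 was at -0.003 (adjusted p = 0.997 by edgeR), Tdrd6 at -0.445 (adjusted p = 0.186 by edgeR) and Tdrd9 at -0.45 (adjusted p = 0.128 by edgeR).

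Ago413+/- round spermatids differed from the wild type most in Rnf17, at 147, 165, 175 and 182 CPM against 85.2, 136 and 143 CPM. All heterozygous libraries were higher, 1 of 10 members without overlap against 8.69% of all genes. The log2 fold change was 0.47 (SE 0.20, adjusted p = 0.551 by edgeR), and Ddx4 had 0.35 (SE 0.18, adjusted p = 0.589) and Tdrd5 -0.36 (SE 0.32, adjusted p = 0.74). These values depended on single libraries. Rnf17 reached 0.60 without wild-type replicate 4 and Ddx4 0.46 without wild-type replicate 2. Tdrd5 reached -0.65 without heterozygous replicate 2. Without wild-type replicate 1 they were 0.24 for Rnf17, 0.18 for Ddx4 and -0.16 for Tdrd5, and with the wild-type outlier library added back 0.09 for Rnf17 (adjusted p = 0.984 by edgeR), 0.03 for Ddx4 (adjusted p = 0.994) and -0.31 for Tdrd5 (adjusted p = 0.945). No member was called by either tool (0.0207% of all genes with edgeR and 0.0414% with DESeq2), and 1 had an unadjusted p under 0.05 against 8.88%.

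Against Ago413+/- RS, all 10 members were lower in Ago413-/- RS, from -0.03 for Ddx25 (SE 0.11) to -0.29 for Tdrd6 (SE 0.15, adjusted p = 0.671 by edgeR). None was called by either tool (0.00518% of all genes with edgeR and 0.104% with DESeq2), and none had an unadjusted p under 0.05, against 7.67% of all genes. Every member overlapped between the groups, against 4.01% of all genes that did not. The median of the members was -0.18 against -0.02 for all genes. All 8 spermatocyte markers were lower too, with a median of -0.23, as were 79 of 90 genes of the pachytene list, and their part was not tested. Ddx25 turned above 0 with the wild-type outlier library in the fit and with only the compared groups. Tdrd6 was at -0.16 without null replicate 1 and at -0.38 without null replicate 4.

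**Figure D5:**
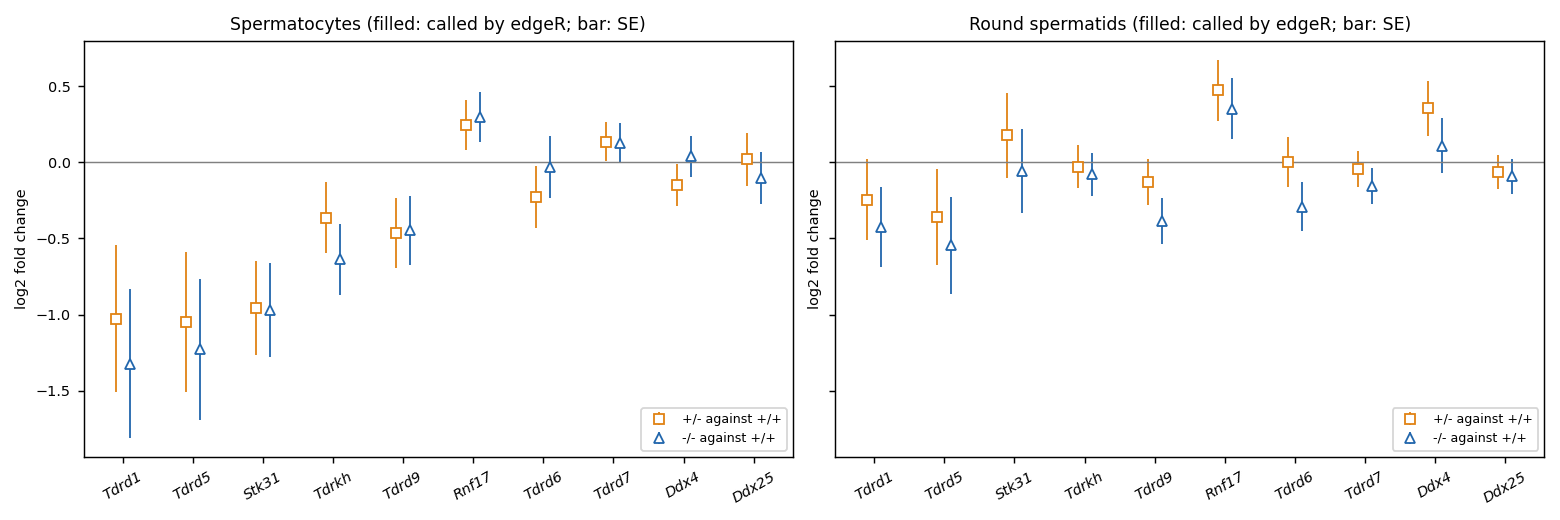
Log2 fold change of Ago413+/- (squares) and Ago413-/- (triangles) against Ago413+/+ for each gene in spermatocytes (left) and round spermatids (right), with bars for the standard error and filled symbols for calls by edgeR. No symbol is filled, and the values furthest from 0 are those of Tdrd1 (-1.32) and Tdrd5 (-1.23) in Ago413-/- SP.

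Of 24 other genes of piRNA and germ granule biology, 22 were tested. Between Ago413+/+ RS and SP, 8 were called lower and 1 higher, with a median of -0.60, where 24.2% of all genes were called. The higher gene was Kif17 (log2 fold change 1.34, adjusted p = 0.000435 by edgeR), a kinesin found at the chromatoid body. The lower genes included Mybl1 (-1.42, adjusted p = 0.00109), the transcription factor of pachytene piRNA loci, Pld6 (-1.36, adjusted p = 0.00139), the mitochondrial nuclease of piRNA production, and the Tudor gene Tdrd12 (-0.88, adjusted p = 0.00154). In Ago413-/- males 3 were called lower and 2 higher, against 17.1% of all genes called, and in Ago413+/- males Kif17 alone was called (1.02, adjusted p = 0.00316), against 8.89%. In the null, Kif17 (0.85, adjusted p = 0.00564) and Ddx3x (0.96, adjusted p = 0.0298) were higher, and Tex15 (-1.41, adjusted p = 0.0237) and Pld6 (-0.85, adjusted p = 0.0302) were among the lower. No gene of this list was called in a genotype comparison by edgeR. In Ago413-/- SP against the wild type, 11 of its genes had an unadjusted p under 0.05 (30.4% of all genes), DESeq2 called 2 higher and 5 lower (15.2% of all genes), and the lowest p-values were those of Pld6 (-1.15) and Tex15 (1.38), both with an edgeR adjusted p of 0.0599. At an unadjusted p under 0.05 there were 7 in Ago413+/- against Ago413+/+ SP (24.6% of all genes), 7 in Ago413-/- against Ago413+/+ RS (19.3%) and 0 to 3 in the other 3 genotype comparisons (3.74% to 8.88%). DESeq2 called 3 (6.16% of all genes), 1 (3.62%) and 0.

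Among 20 tested Tudor domain genes outside the germ granule group, 5 were called lower and 3 higher between Ago413+/+ RS and SP, with a median of -0.22, against the same 24.2% of all genes. Akap1, which encodes a mitochondrial anchor of protein kinase A, rose by 1.80 (adjusted p = 0.000441 by edgeR) and Sgf29, a subunit of the SAGA complex, by 0.90 (adjusted p = 0.00154). Mtf2, a partner of Polycomb repressive complexes, fell by 1.30 (adjusted p = 0.00101) and Arid4b, a chromatin factor, by 1.32 (adjusted p = 0.00204). Akap1 was also called higher in Ago413+/- (1.55, adjusted p = 0.00205) and Ago413-/- males (1.67, adjusted p = 0.000966). In all, 2 of these genes were called lower and 1 higher in Ago413+/- males, against 8.89% of all genes called and 1.82% lower, and 2 lower and 3 higher in Ago413-/- males, against 17.1% called and 5.42% lower.

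Of 31 tested DEAD-box helicases outside the members, 8 were called lower and 0 higher between Ago413+/+ RS and SP, with a median of -0.40, also against 24.2% of all genes. They included Ddx52 (-1.17, adjusted p = 0.00103 by edgeR), Ddx1 (-0.59, adjusted p = 0.00151), Ddx43 (-1.49, adjusted p = 0.0021) and Ddx51 (-1.19, adjusted p = 0.00533). In Ago413+/- males 1 was called lower and 0 higher, against 8.89% of all genes called and 1.82% lower, and in Ago413-/- males 5 lower and 1 higher, against 17.1% and 5.42%. Neither of these lists had a call by edgeR in any genotype comparison. In Ago413-/- SP, 16 of the helicases and 6 of the Tudor genes had an unadjusted p under 0.05 against 30.4% of all genes, and DESeq2 called 4 and 2 against 15.2%. At an unadjusted p under 0.05 there were 9 helicases and 3 Tudor genes in Ago413+/- against Ago413+/+ SP (24.6% of all genes) and 11 and 3 in Ago413-/- against Ago413+/+ RS (19.3%). In the other 3 genotype comparisons there were 0 to 3 and 0 to 2 (3.74% to 8.88%). DESeq2 called 2 of each list in the first of these comparisons (6.16% of all genes), 2 helicases and 1 Tudor gene in the second (3.62%) and 0 in the others.

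The gene outside the members whose 6 group means of log2(CPM + 1) lay nearest after centring was found for each member among 20394 genes. The root mean square distance on the log2 scale was smallest for Tdrd9 with Ddx42 (0.0197), Tdrd7 with Zw10 (0.0241), Ddx25 with Gm10676 (0.0265) and Tdrkh with Pigk (0.0273). It was 0.0284 for Tdrd5 with 4933435G04Rik, 0.0287 for Ddx4 with Suz12 and 0.0338 for Tdrd6 with Gm14419. Rnf17 lay nearest to Mpp5 (0.0416), Tdrd1 to Kctd7 (0.0462) and Stk31 to Kbtbd8 (0.057). Ddx42 is itself a DEAD-box helicase.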

How the data were processed

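Per the labels and the methods of the study, poly(A) RNA was made into directional libraries, reads were trimmed with Trim Galore and aligned to mm10 with STAR, and the authors deposited raw counts per gene, with no normalization. The strand column and annotation release are not given in the sources used here. All 55536 identifiers were found in GENCODE release 21, and every entry named a gene.

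Groups and replicate numbers came from the labels, and the 3 libraries labelled outliers were left out. The table was fitted whole, with genes holding 10 or more counts in 3 or more libraries, by edgeR 4.0.16 under R 4.3.3, with TMM factors and its quasi-likelihood test. Genotypes were compared on the 10 SP or 11 RS libraries, and fractions and interactions on all 21. A call needed a Benjamini-Hochberg adjusted p under 0.05 and a log2 fold change beyond 0.5. DESeq2 1.42.0, the tool of the study, was an alternative with the same thresholds, as were other size factors, no filter, the outlier libraries, each library left out, blocks by replicate number, a term for library numbers above 60 and fits of only the compared groups. The code recovered known changes in simulated counts, which had large changes and the same spread in every gene. That spread was smaller than the spread of Tdrd1, Tdrd5 and Stk31 in wild-type SP. The check therefore does not show whether the fits could find differences such as those reported here. CPM and RPKM were computed here. SD is over libraries. Each library is a pool of animals, and the labels do not say which fractions came from the same pool, so p-values measure the spread between preparations. Library pairs of a group differed by more than sampling noise (chi-square per gene 9.75 to 114 over 27 pairs). A count of 0 allows 3 counts, at most 0.234 CPM, for counting error only.

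The members, the gene lists (germ granule partners, other Tudor genes, other DEAD-box helicases and cell type markers) and the rule for named genes were chosen with earlier results of these data known. All members were described, and of each list up to 4 called genes with the lowest p, or 2 where none was called, could be named, with the nearest gene of each member. Promoter windows are RefSeq's, on GRCm38.p6. Same-numbered libraries were not treated as paired in the reported fits, nor were libraries of consecutive numbers. Deviations from the group means correlated above 0.1 in 5 of 7 same-numbered SP pairs and 2 of 10 RS pairs. Across fractions they did so in 4 of 9 same-numbered pairs and 8 of 9 pairs of consecutive numbers. The reported p-values take libraries as independent, which these correlations do not establish, and fits with blocks are given below.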

Additional observations from a re-analysis of the deposited data

Results flagged for a closer look

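In Ago413+/- RS, replicate 2 had 36.6 CPM (36.57 before rounding) of Tdrd5 against 17.9 to 21.1 CPM in the other 3 libraries. Its distance from the nearest of the others was 0.83 of the range of the group, just past the limit of Dixon's test for 4 samples. The same library had the highest sum of spermatocyte markers of its group, 469 CPM against 302 to 377 CPM, and the part of these markers was not tested. Of 30 such groups of 4 libraries examined over the members, this was the 1 past the limit, where chance gives about 1 in 20.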

How the results depend on the processing

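The number of members called moved as follows. In Ago413-/- against Ago413+/+ SP it went from 0 to 2 with DESeq2 and 3 without the low-count filter (7.61% of all genes), and ranged from 0 to 4 over fits that left out 1 library. In Ago413+/- against Ago413+/+ SP it went from 0 to 3 without the filter (4.3% of all genes), and ranged from 0 to 1. For RS against SP adding back the outlier libraries left 0 of 7 wild-type calls and 0 of 3 null calls, and the heterozygote went from 0 to 2 without the filter (5.83% of all genes). Left-out libraries gave 4 to 7, 0 to 5 and 0 to 1. The causes were not tested. With the replicate number as a replicate block the counts were 7, 0 and 3 for RS against SP in the wild type, heterozygote and null (29.5%, 5.22% and 20.3% of all genes) and 0 elsewhere, and blocks of consecutive library numbers, whose pairs correlated above 0.1 in 8 of 9 cases, gave the same members. Over all genes the replicate block moved the calls from 8 to 687 in null against wild-type SP (3.53% of all genes), from 1814 to 1066 in heterozygous RS against SP and from 4934 to 6024 in wild-type RS against SP. Over all genes and all alternatives the calls ranged from 4 to 4526 in null against wild-type SP, 2 to 2966 in heterozygous against wild-type SP (5 in the reported fit), 0 to 30 in null against heterozygous SP (1), 5 to 699 in null against wild-type RS (10), 3 to 10 in heterozygous against wild-type RS (4), 1 to 20 in null against heterozygous RS (1), and for RS against SP 0 to 6398 in the wild type (4934), 0 to 2329 in the heterozygote (1814) and 1248 to 4143 in the null (3498). Signs turned in values of which none was called. Adding back the outlier libraries turned 14 of the 110 values of the 10 members in 11 comparisons, interactions included. Among the values given in the text these were Ddx25 in null against wild-type SP (0.002), Rnf17 in null against wild-type RS (-0.003, against 0.35 as reported), Ddx25 in null against heterozygous RS (0.003) and Tdrd6 in wild-type RS against SP (0.003). With the library number term they were Tdrd1 (0.053, against -0.29) and Tdrkh (0.034, against -0.27) in null against heterozygous SP, with only the compared groups Ddx25 in null against heterozygous RS (0.002), and with consecutive blocks Tdrd6 in wild-type RS against SP (0.001). Leaving out a library gave -0.687 to 0.191 for Tdrd1 and -0.002 to 0.349 for Tdrd6 in null against heterozygous SP, -0.273 to 0.098 for Stk31 in null against wild-type RS, -0.039 to 0.031 for Ddx25 in null against heterozygous RS and -0.009 to 0.114 for Tdrd7 in wild-type RS against SP.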

Other observations

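The 3 libraries that the labels call outliers entered no comparison, and their values follow on the scale of TMM over all 24 libraries. The library labelled Ago413+/+ SP replicate 3 had 45.1 CPM of Tdrd1, 25.0 CPM of Tdrd5 and 23.9 CPM of Stk31, all below the range of the other 4 libraries of its group, whose lowest values were 59.7, 46.2 and 41.7 CPM. Its spermatocyte markers summed to 404 CPM, below the 634 to 1025 CPM of that group, and its elongating spermatid markers to 14042 CPM, above 3393 to 8153 CPM. The library labelled Ago413+/- SP replicate 4 had 26.8 CPM of Tdrd1, 10.1 CPM of Tdrd5 and 15.0 CPM of Stk31, again below its group, with 376 CPM of spermatocyte markers against 423 to 579.6 CPM.

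The library labelled Ago413+/+ RS replicate 3 had 753 CPM of Ddx4, above the 315 to 442 CPM of its group, 260.1 CPM of Rnf17 against 85.4 to 143 CPM, and 1479.5 CPM of Tdrd6 against 979.7 to 1051.9 CPM. Its spermatocyte markers summed to 531 CPM against 396 to 435 CPM.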
